A study of Mus musculus with 6 samples.

Results

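The Slit ligands and Robo receptors examined here are 6 mouse genes, Slit1, Slit2, Slit3, Robo1, Robo2 and Robo3, taken by symbol from a count table of 56805 genes. All 6 were found, and all 6 were among the 21972 genes that passed the low-count filter. The samples are labelled as motor neurons from cervical and from thoracic levels of the embryonic mouse spinal cord (e12.5), with 3 cervical and 3 thoracic libraries. All came from embryos of control genotype that received no treatment, so region is the one labelled difference. The series title places the comparison within work on Hox5 genes and motor neuron diversity. The labels do not say how the cells were collected or whether a replicate is 1 embryo or a pool, so a p-value here measures the spread between these libraries. Because whole populations were sequenced, fewer cells of a type and less RNA per cell cannot be told apart.

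Slits are large secreted proteins with leucine-rich repeats, and Robos are immunoglobulin superfamily receptors on the axon surface. Binding of Slit to Robo1 or Robo2 repels growing axons. In the developing spinal cord the floor plate secretes Slits and keeps axons from lingering at or recrossing the midline, and motor neurons express Slit genes too. Slit-Robo repulsion is also known to hold motor neuron cell bodies away from the floor plate. Robo3 marks commissural neurons before they cross and opposes midline repulsion there, and in mammals it binds Nell2 rather than Slit with high affinity.

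Library totals were 32103071 to 33790634 counts, apart from thoracic replicate 1 with 53186131. The members held between 2994 counts (Slit3) and 46104 counts (Slit2) in a library, which corresponds to a counting error of 1.83% and 0.466%, while the coefficient of variation between libraries of a region was 3.07 to 24.1%. The exception was Slit1 in thoracic libraries, whose variation of 0.501% was no larger than counting error. All 9 motor neuron markers examined were detected. The highest in CPM was Mnx1 at 185.7 ± 47.3 CPM for cervical, against 166.4 ± 30.2 CPM for thoracic libraries (SD, n = 3 each). The lowest was Isl2 at 11.3 ± 3.73 CPM for cervical, against 14.5 ± 3.47 CPM for thoracic. Of the 9, 3 had log2 fold changes above 0, Mnx1 among them, and 6 below 0, with a median of -0.33. EdgeR called none of the 9. With the replicate number as a block it called 2 lower in cervical libraries, where 1.39% of all genes tested were. These were Isl1 and Slc18a3 (blocked log2 fold changes of -0.63 and -0.59). CPM here are counts scaled to a common library size with TMM factors. Markers of interneurons, progenitors and floor plate were also present, as described further down, so a value cannot be assigned to motor neurons alone. The 9 motor neuron genes summed to 357.9 to 723.6 CPM for cervical, against 447.9 to 669.4 CPM for thoracic. A list of 13 other interneuron genes summed to 1887 to 2064 CPM for cervical, against 1635 to 1671 CPM for thoracic.

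Slit2 and Slit3 each carry a gene of the microRNA miR-218 in an intron. MiR-218 is a microRNA known for its enrichment in motor neurons. Its sequences are shown because the count table holds a row for each hairpin inside the Slit genes. The mature strand is the same from both loci (RefSeq, GRCm38.p6), and its seed, bases 2 to 8, is in capitals:
mmu-miR-218-5p: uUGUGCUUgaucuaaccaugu
In the hairpins the mature 5p strand is in capitals, and the bases around it differ between the copy in Slit2 and the copy in Slit3, both on the plus strand:
Mir218-1 (inside Slit2): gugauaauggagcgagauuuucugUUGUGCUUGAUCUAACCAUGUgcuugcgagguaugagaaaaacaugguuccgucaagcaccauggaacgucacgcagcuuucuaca
Mir218-2 (inside Slit3): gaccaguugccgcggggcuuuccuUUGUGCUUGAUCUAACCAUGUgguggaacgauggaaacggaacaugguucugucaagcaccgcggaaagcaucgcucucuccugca
The windows from 250 bases before to 50 bases after the annotated starts of these host genes are given because Slit3 showed the largest region difference of the 6 genes and Slit2 lay on the same side (RefSeq, GRCm38.p6, chr5:47982905-47983204 for Slit2 and chr11:35121206-35121505 for Slit3, plus strand). Capitals mark CG dinucleotides and the motif TATAAA, which was searched on both strands.
Slit2: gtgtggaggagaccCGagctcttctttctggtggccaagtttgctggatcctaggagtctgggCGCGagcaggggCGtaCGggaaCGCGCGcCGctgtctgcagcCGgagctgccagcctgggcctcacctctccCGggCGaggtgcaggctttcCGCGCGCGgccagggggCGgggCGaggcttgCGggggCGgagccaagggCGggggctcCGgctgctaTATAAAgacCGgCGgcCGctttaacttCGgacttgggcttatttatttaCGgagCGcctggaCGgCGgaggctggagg
Slit3: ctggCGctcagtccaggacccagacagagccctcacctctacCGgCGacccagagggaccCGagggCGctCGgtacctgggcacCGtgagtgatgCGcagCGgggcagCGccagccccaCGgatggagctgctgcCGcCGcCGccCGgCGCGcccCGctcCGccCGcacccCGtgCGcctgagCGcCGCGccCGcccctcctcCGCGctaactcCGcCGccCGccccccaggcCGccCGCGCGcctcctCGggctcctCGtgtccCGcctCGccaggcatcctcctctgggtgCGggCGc
The Slit2 window held 30 CG dinucleotides and the Slit3 window 41, where the median of 32851 such windows was 7. TATAAA was found in the Slit2 window and not in that of Slit3, and in 13.6% of all windows. The motif TAATTA, a core of homeodomain sites that overlaps neither, was found in neither window and in 5.29% of all windows. Promoters of Robo1, Robo2 and Robo3 were matched in the same table, and of these the Robo3 window held TAATTA.

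The 3 Slit genes, which encode the ligands, all lay lower in the cervical libraries than in the thoracic ones, and Slit3 differed most. Of the 3 Robo genes, Robo1 and Robo2 lay higher in cervical libraries and Robo3 lower. None of these 6 differences was called by edgeR (quasi-likelihood test, p adjusted by Benjamini-Hochberg over all genes, threshold 0.05), where 0.542% of genes were (119 of 21972). At an unadjusted p below 0.05 there were 3 members (Slit1, Slit3 and Robo2), against 8.47% of all genes tested, and neither DESeq2 nor limma-voom called any of the 6. When the replicate number from the sample titles was added as a block, Slit3 was called lower in cervical libraries. That fit called 1.97% of all genes, with 1.39% of all genes lower in cervical, as Slit3 was. The median log2 fold change (cervical minus thoracic) was -0.23 for the Slit genes and 0.19 for the Robo genes, beside 0.01 for all genes tested.

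Slit3, whose product shares the domain layout of the other Slits, lies on chromosome 11 from 35012051 to 35599334 on the plus strand (mm39). It had 136.2, 87.8 and 115.5 CPM in cervical replicates 1, 2 and 3, against 183.0, 114.7 and 178.5 CPM in thoracic replicates 1, 2 and 3. Replicate 2 was the lowest of its region on each side, and the ranges of the regions overlapped, since cervical replicates 1 and 3 lay above thoracic replicate 2. Within each pair of the same number, however, the cervical library was the lower, by log2 differences of -0.43, -0.39 and -0.63. The means were 113.2 ± 24.3 CPM for cervical and 158.7 ± 38.2 CPM for thoracic (SD, n = 3 each). The log2 fold change was -0.49 (SE 0.18, 95% interval -0.88 to -0.09, edgeR adjusted p = 0.440), or 1.40-fold higher in thoracic. With the replicate block it was -0.48 and was called as lower in cervical (edgeR adjusted p = 0.00165). Over the other alternatives the adjusted p of Slit3 ran from 4.4e-09 without a low-count filter to 0.778 without cervical replicate 2.

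Slit2, the most abundant of the 6 genes in counts, lies on chromosome 5 from 48140480 to 48465075 on the plus strand. It had 773.6, 621.3 and 771.6 CPM in the cervical replicates, against 860.5, 678.6 and 996.7 CPM in the thoracic replicates. Replicate 2 was again the lowest of each region, the ranges overlapped, and the cervical library was the lower one in each pair (-0.15, -0.13 and -0.37). The log2 fold change was -0.23 (SE 0.13, 95% interval -0.51 to 0.06, edgeR adjusted p = 0.727, and 0.0978 with the block). Leaving out thoracic replicate 3 gave -0.09, leaving out cervical replicate 2 gave -0.13, and leaving out thoracic replicate 2 gave -0.36.

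Slit1, a ligand found mainly in the nervous system, lies on chromosome 19 from 41588696 to 41732104 on the minus strand. It had 307.2, 396.8 and 336.3 CPM in the cervical replicates, against 399.3, 403.0 and 402.5 CPM in the thoracic replicates. The thoracic values stood close together (SD 2.01 CPM), and the cervical ones were all lower (SD 45.7 CPM), so the regions did not overlap, although cervical replicate 2 came close to the thoracic libraries. Its log2 fold change was -0.21 (SE 0.08, 95% interval -0.40 to -0.03, edgeR adjusted p = 0.503, and 0.162 with the block). It was -0.13 without cervical replicate 1 and -0.32 without cervical replicate 2. Of the 6 members, 2 had regions that did not overlap (Slit1 and Robo2), as did 13.7% of all genes tested. All 3 Slit genes were lower in the cervical library of every pair, as were 16.4% of all genes tested.

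**Figure D1:**
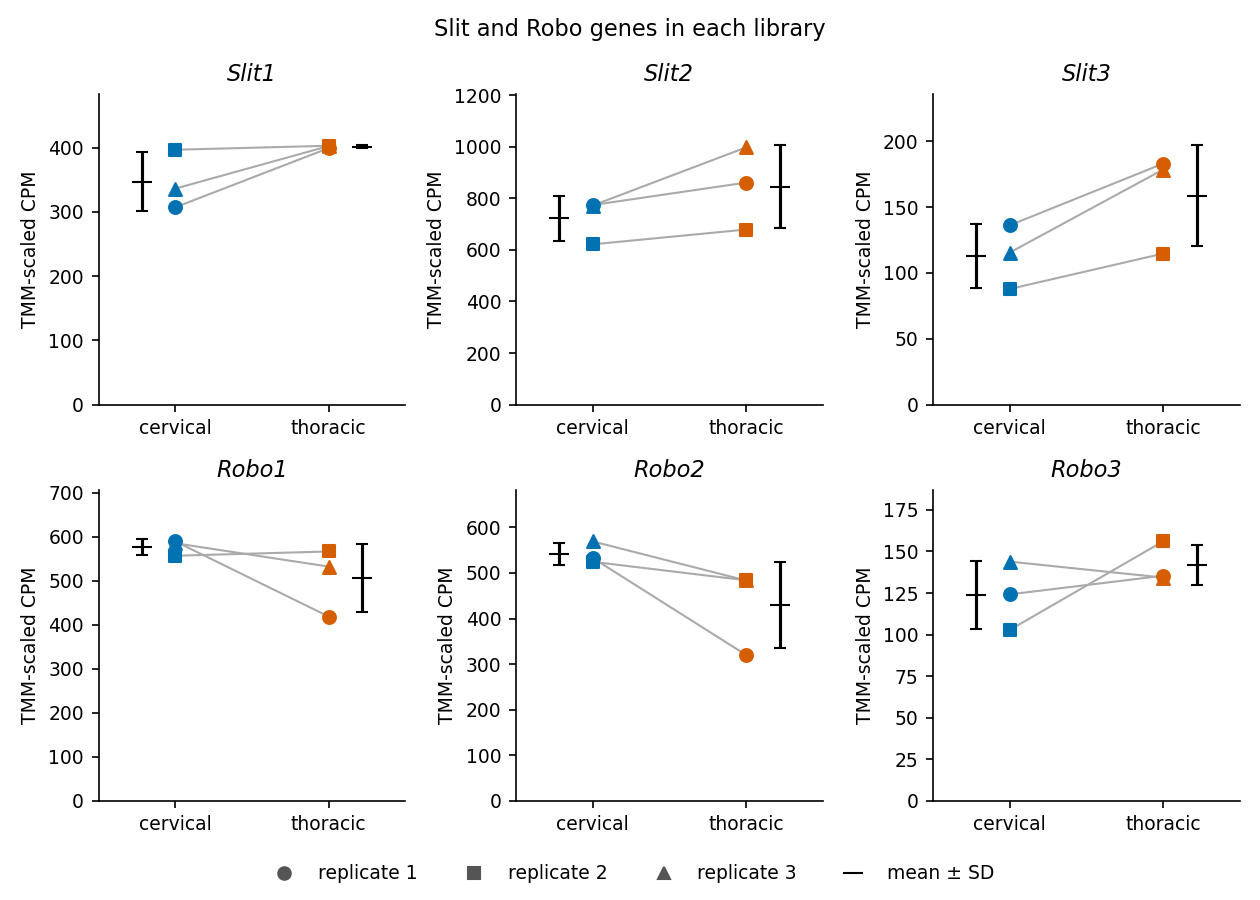
TMM-scaled CPM (y axis) of the 6 genes in each cervical and thoracic library. Lines join libraries with the same replicate number, marker shapes give the number, and bars give mean ± SD of 3 libraries. Each Slit line ends higher on the thoracic side, while Robo1 and Robo2 are lowest in thoracic replicate 1, at 418.7 and 320.3 CPM.

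Robo2, a Slit receptor, lies on chromosome 16 from 73688727 to 74208713 on the minus strand. It had 533.1, 524.5 and 569.4 CPM in the cervical replicates, against 320.3, 484.0 and 483.6 CPM in the thoracic replicates. The regions did not overlap, and thoracic replicate 1, the library with the highest total, was by far the lowest. The log2 fold change was 0.34 (SE 0.13, 95% interval 0.05 to 0.63, edgeR adjusted p = 0.483, and 0.0669 with the block). Without thoracic replicate 1 it was 0.16. The differences within pairs were 0.74, 0.12 and 0.24, above 0 in every pair, as for 15% of all genes tested.

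Robo1, a Slit receptor whose gene neighbours Robo2, lies on the same chromosome from 72105194 to 72842983 on the plus strand, 845.7 kb away. It had 589.6, 556.9 and 585.3 CPM in the cervical replicates, against 418.7, 566.6 and 532.3 CPM in the thoracic replicates. Thoracic replicate 1 was again the lowest library. Thoracic replicate 2 lay between the cervical libraries, so the regions overlapped. The log2 fold change was 0.19 (SE 0.10, 95% interval -0.02 to 0.41, edgeR adjusted p = 0.673) and 0.07 without thoracic replicate 1.

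Robo3, the commissural receptor, lies on chromosome 9 from 37326965 to 37344542 on the minus strand. It had 124.2, 102.8 and 143.9 CPM in the cervical replicates, against 135.4, 156.1 and 134.3 CPM in the thoracic replicates. The regions overlapped and the pairs lay on each side of 0, with log2 differences of -0.12, -0.60 and 0.10. The log2 fold change was -0.20 (SE 0.11, 95% interval -0.44 to 0.04, edgeR adjusted p = 0.706, and 0.503 with the block). It came to -0.08 with cervical replicate 2 left out, -0.12 with thoracic replicate 2 left out and -0.32 with cervical replicate 3 left out. Its neighbour Robo4, the Robo of blood vessels, ends 553 bases from it on the opposite strand and averaged 1.74 ± 0.481 CPM for cervical, against 2.36 ± 0.775 CPM for thoracic (edgeR log2 fold change -0.44, adjusted p = 0.807).

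**Figure D2:**
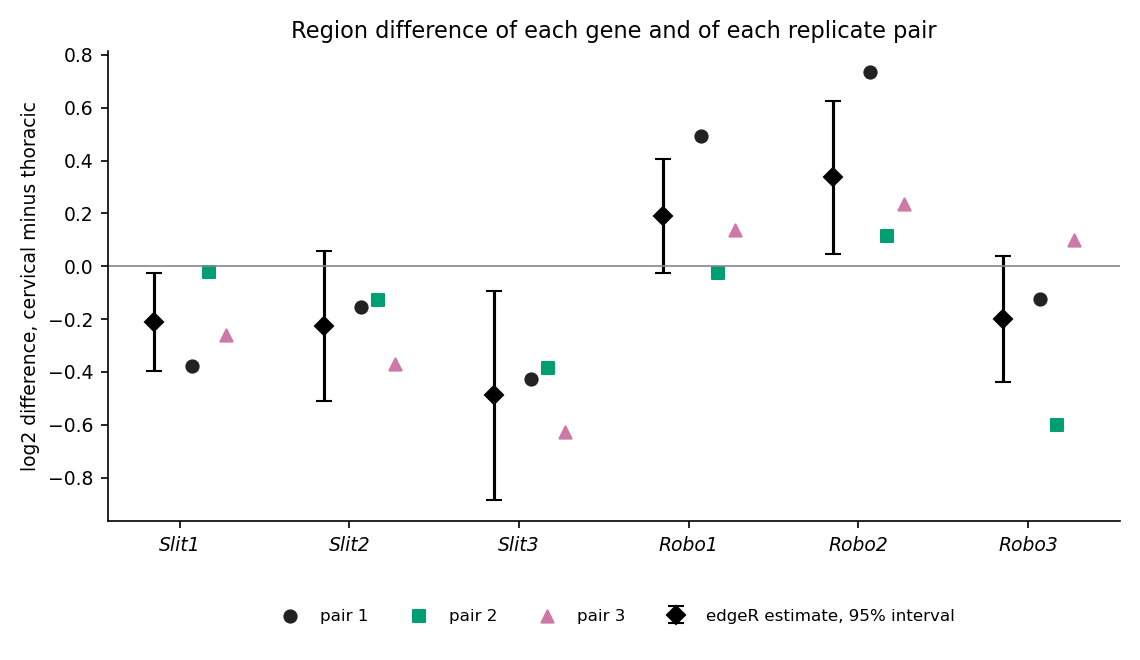
Log2 difference, cervical minus thoracic (y axis), of each gene. Diamonds are the edgeR estimates with 95% intervals, and the other symbols are the 3 pairs of libraries with the same replicate number. All Slit pairs lie below 0 and all Robo2 pairs above 0, while Robo1 and Robo3 have pairs on each side.

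Summed over the 3 ligands, Slit genes reached 1217, 1106 and 1223 CPM in the cervical replicates, against 1443, 1196 and 1578 CPM in the thoracic replicates. Summed Robo genes reached 1247, 1184 and 1299 CPM in the cervical replicates, against 874.4, 1207 and 1150 CPM in the thoracic replicates. The ratio of summed Slit to summed Robo CPM was 0.976, 0.934 and 0.942 in the cervical replicates, against 1.65, 0.991 and 1.37 in the thoracic replicates, and the regions did not overlap. This ratio depends on the lengths of the genes. From RPKM, which divides each gene's counts by its merged exonic length, it was 1.23, 1.33 and 1.18 in the cervical replicates, against 2.05, 1.33 and 1.70 in the thoracic replicates, and thoracic replicate 2 fell within the cervical range. The genes were chosen with earlier results of these data known, so these sums carry no test.

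To compare genes with each other, counts were divided by the length of their merged exons (RPKM, which is CPM per kilobase). Over the 6 libraries Slit1 had the highest level at 63.2 ± 7.04 RPKM (SD, n = 6). Robo1 at 32.8 ± 3.86, Slit2 at 30.8 ± 5.24 and Robo2 at 28.6 ± 5.14 RPKM followed. The ranges of mean ± SD of these 3 overlapped, although Robo1 lay above Robo2 in every library. Slit3 at 22.4 ± 6.26 and Robo3 at 19.4 ± 2.65 RPKM came last and overlapped too. The order depends on the length used. Slit2 has 25433 merged exonic bases, Robo1 16511 and Robo2 16983, while their longest coding transcripts in GENCODE M21 have 9960, 7563 and 8591 bases. Per kilobase of those transcripts, Slit2 came first at 78.7 ± 13.4 CPM, then Robo1 at 71.6 ± 8.42, Slit1 at 65.96 ± 7.35 and Robo2 at 56.6 ± 10.2, with Robo3 at 27.7 ± 3.79 and Slit3 at 26.0 ± 7.26. Averaged over all 6 libraries, Robo3 and Slit3 were the lowest by either length. In thoracic libraries alone, however, Slit3 averaged 26.2 ± 6.29 RPKM of merged exons, beside 25.3 ± 5.56 RPKM for Robo2 (SD, n = 3).

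**Figure D3:**
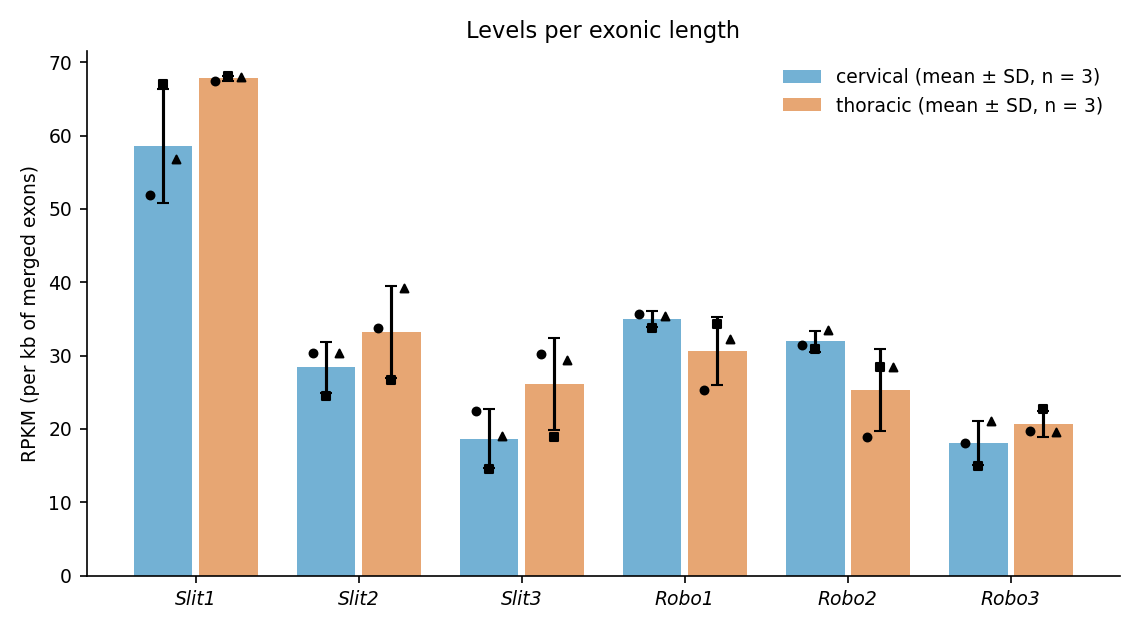
RPKM per kilobase of merged exons (y axis, from 0) of the 6 genes in cervical (left bar) and thoracic (right bar) libraries, mean ± SD of 3. Circles, squares and triangles are replicates 1, 2 and 3. Slit1 averages 58.6 RPKM in cervical and 67.8 RPKM in thoracic libraries, above the other 5 genes, which lie between 18.1 and 34.96 RPKM.

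The makeup of the receptors was compared as shares. Robo2 held 37.6 ± 1.03% of Robo reads per length in cervical and 32.7 ± 3.03% in thoracic libraries. Robo3 held 21.2 ± 2.25% in cervical and 27.3 ± 3.29% in thoracic libraries, and Robo1 held 41.2 ± 1.60% in cervical and 40.0 ± 0.273% in thoracic libraries (SD, n = 3 each). The shares of Robo2 and Robo3 did not overlap between the regions, and the exact two-sided permutation p was 0.1 for each, the smallest that this test, which ignores the pairs, can give with 3 against 3 libraries, so it cannot reach 0.05. For Robo1 the exact p was 0.4. Within the ligands, Slit1 held 55.4 ± 7.07% in cervical and 53.7 ± 5.45% in thoracic libraries, Slit2 26.9 ± 3.32% in cervical and 26.0 ± 2.62% in thoracic, and Slit3 17.7 ± 3.89% in cervical and 20.4 ± 3.31% in thoracic libraries. Compared without regard to the pairs, these ligand shares differed by less than the spread between replicates (exact two-sided permutation p of 0.7, 0.9 and 0.4). Within pairs, however, the Slit3 share was lower in the cervical library each time, at 21.4, 13.7 and 17.9% in cervical replicates 1, 2 and 3, against 23.0, 16.6 and 21.5% in thoracic replicates 1, 2 and 3.

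The hairpin rows inside the Slit genes had few reads. Mir218-1, on chromosome 5 from 48381284 to 48381393 (mm39), had 18, 26 and 18 counts in the cervical replicates, against 56, 6 and 29 counts in the thoracic replicates. Mir218-2, on chromosome 11 from 35507643 to 35507752, had 152, 52 and 97 counts in the cervical replicates, against 258, 100 and 109 counts in the thoracic replicates. Scaled for depth, Mir218-2 had 4.71, 1.53 and 3.04 CPM in the cervical replicates, against 4.82, 3.07 and 3.37 CPM in the thoracic replicates. The lowest Mir218-2 value of each region was in replicate 2, as it was for the host gene Slit3. The log2 fold changes were -0.20 (SE 0.53) for Mir218-1 and -0.29 (SE 0.35) for Mir218-2, with edgeR adjusted p of 0.970 and 0.917, and the interval of Mir218-2 ran from -1.06 to 0.48. Reads of a hairpin row can come from unspliced host RNA as well as from a microRNA precursor, and the mature strand was not measured.

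Other annotated rows lie in the introns of the host genes and share no exonic base with them, so their reads do not add to the values above. The 5 rows on the Slit2 strand other than the hairpin summed to 29.2 ± 2.73 CPM for cervical, against 27.9 ± 7.64 CPM for thoracic, with log2 differences within pairs of 0.12, 0.59 and -0.40. They did not share the direction that Slit2 exons had in pairs 1 and 2. The 4 rows on the Robo2 strand that are not hairpins summed to 15.6 ± 1.28 CPM for cervical, against 11.4 ± 4.07 CPM for thoracic, and the 3 of them that were tested had log2 fold changes above 0, as Robo2 had. Within pairs, however, this sum differed by 0.99, 0.74 and -0.17 on the log2 scale, so pair 3 went against Robo2. None of these rows was called by edgeR with or without the block.

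Genes whose pattern over the 6 libraries came closest to a member were found among 10026 genes with a mean of at least 10 CPM. Likeness was the root mean square difference of log2 CPM after centring each gene. Robo2 was closest to Nrxn3 (0.0678), a synaptic adhesion gene, and Erbb4 (0.0735), a neuregulin receptor. Robo1 was closest to Gm20604 (0.0368) and Rbfox1 (0.0576), a neuronal splicing factor. Nrxn3, Erbb4 and Rbfox1 are long genes, at 1610, 1080 and 1530 kb from start to end, as are Robo1 (738 kb) and Robo2 (520 kb). Gm20604 has 16.9 kb. Slit3, at 587 kb, is longer than Robo2 but lay lower in cervical libraries and far from Robo2 in pattern (0.585). The 223 tested genes above 500 kb had a median log2 fold change of 0.01, and 52% of them lay above 0. The part of gene length in this likeness was not tested. Robo1 was the 17th closest gene to Robo2 (0.112). Slit3 was closest to Arhgap28 (0.102) and Itga9 (0.108), an integrin subunit, and Slit2 was the 42nd closest gene to it (0.190). Slit2 was closest to Ccdc117 (0.0492) and Il6st (0.0646), Slit1 to Prrg3 (0.0336) and Slc17a5 (0.0401), and Robo3 to Btg2 (0.0702) and Arl6 (0.0746). Slit1 lay far from Slit2 (0.265) and Slit3 (0.389), since cervical replicate 2 is the highest cervical library of Slit1 and the lowest of the other Slits. With 6 libraries, many genes reach small distances, and these names are a description.

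Few other genes of the pathway were called. Of 38 listed genes 37 were tested, and 1 was called lower and 0 higher in cervical libraries by edgeR, where 0.35% and 0.191% of all genes were. Their median log2 fold change was -0.05, beside 0.01 for all genes tested. The called gene was Srgap2, of the srGAP family of GTPase-activating proteins that bind Robo1. Srgap2 averaged 78.8 ± 4.34 CPM for cervical, against 101.3 ± 2.76 CPM for thoracic (SD, n = 3 each). Its edgeR log2 fold change was -0.36 with an SE of 0.06 (adjusted p = 0.0363). DESeq2 and limma-voom called it too (adjusted p = 0.000510 and 0.0421), but when each library was left out in turn edgeR called it in 1 of 6 cases, with an adjusted p of 0.0195 to 0.191. Its relatives had log2 fold changes near 0, with -0.00102 for Srgap1 and 0.09 for Srgap3.

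Among the 10 other ligands and surface partners, none was called by edgeR, and 8 lay below 0, as did 47.9% of all genes tested. With the block 1 of the 10 was called lower in cervical libraries, where 1.39% of all genes tested were. This was Ntn1, the netrin of the floor plate, at 344.8 ± 111.1 CPM for cervical, against 458.2 ± 75.4 CPM for thoracic. Its edgeR log2 fold change was -0.41, with an adjusted p of 0.648 without and 0.0104 with the block, and neither DESeq2 nor limma-voom called it (adjusted p = 0.893 and 0.581). Without a low-count filter edgeR called Ntn1, Lhx9, Isl1 and Lhx2 as well, of which Lhx2 alone lay higher in cervical libraries. Dag1, which encodes dystroglycan and binds Slit, lay at -0.24 on the same scale (adjusted p = 0.351 in edgeR), and Gpc1, a heparan sulfate proteoglycan, at -0.14. Nell2, the Robo3 ligand, was the most abundant per length at 72.8 RPKM and averaged 328.1 ± 42.0 CPM for cervical, against 352.0 ± 33.4 CPM for thoracic.

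Of the 18 cytoplasmic effectors, Srgap2 was the one called, and the others had log2 fold changes from -0.16 (Sos2) to 0.09 (Srgap3), with Rac1 at -0.10 and Evl, the most abundant per length, at -0.08. Of 9 tested genes that regulate Slit or Robo levels none was called by edgeR. With the block Lhx9 and Isl1 were called lower in cervical libraries, where 1.39% of all genes tested were. Lhx9, a transcription factor of commissural neurons that acts upstream of Robo3, averaged 12.7 ± 3.04 CPM for cervical, against 21.7 ± 1.30 CPM for thoracic. Its log2 fold change was -0.77, with an edgeR adjusted p of 0.0611 without and 0.00656 with the block, and without the block DESeq2 and limma-voom called it (adjusted p = 0.000119 and 0.0441). Isl1, a motor neuron transcription factor, lay at -0.62 on the log2 scale, with an edgeR adjusted p of 0.181 without and 0.00105 with the block. DESeq2 called Isl1 without the block and limma-voom did not (adjusted p = 0.00330 and 0.151). Lhx2, the partner of Lhx9 upstream of Robo3, pointed the other way (log2 fold change 1.82, edgeR adjusted p = 0.246, and 1.83e-09 without a low-count filter). It averaged 4.42 ± 2.20 CPM for cervical, against 1.19 ± 1.03 CPM for thoracic. Nedd4, a ubiquitin ligase gene and the most abundant of these, lay at -0.12 (adjusted p = 0.671 in edgeR). Nkx2-9, which acts upstream of Robo2 in motor neurons that exit dorsally, averaged 0.0506 CPM or less in each region and did not pass the filter.

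**Figure D4:**
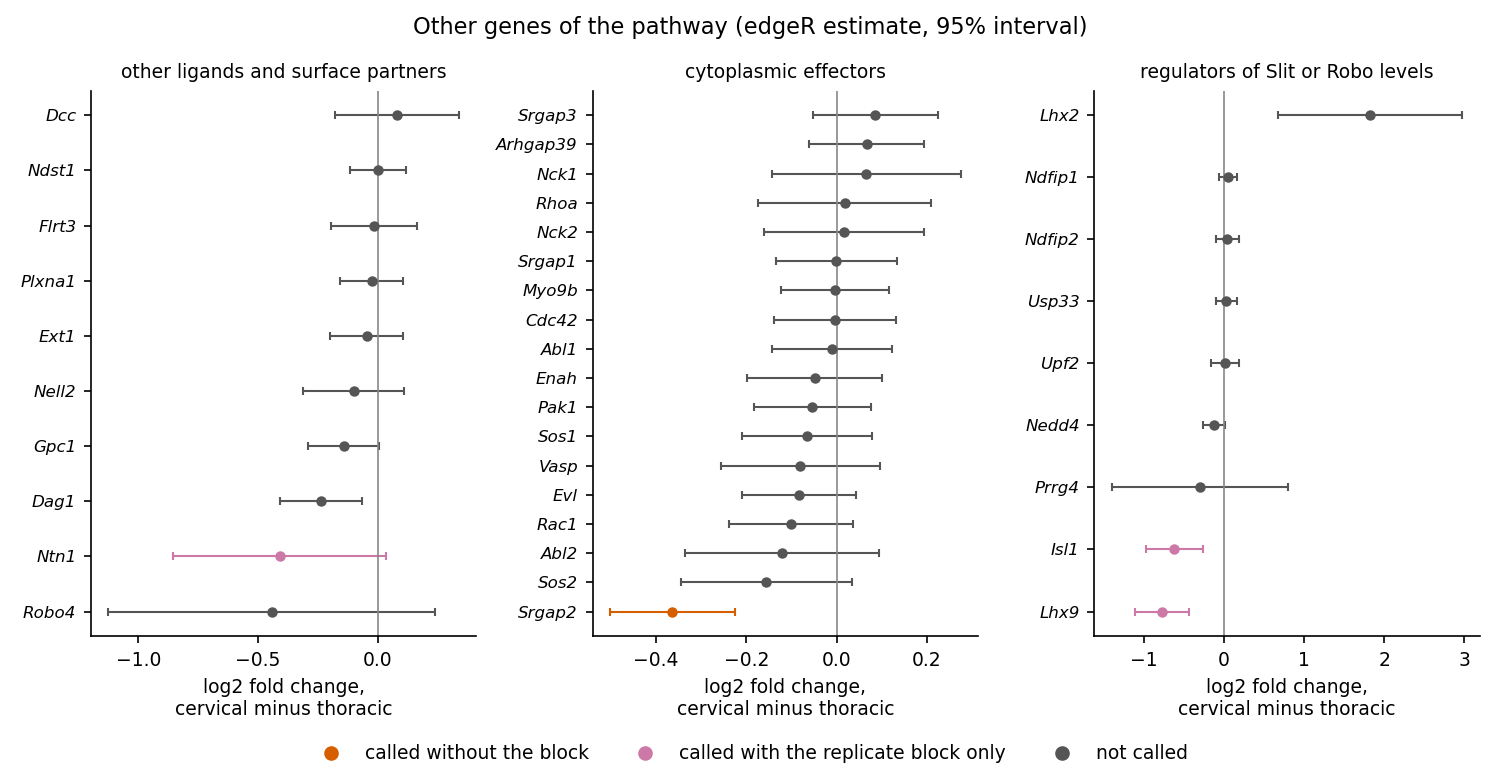
EdgeR log2 fold change, cervical minus thoracic (x axis), with 95% intervals, of the 37 tested pathway genes in 3 panels with different scales. Srgap2 is the gene called without the block, at -0.36, and Ntn1, Lhx9 and Isl1 are the further genes that edgeR calls when the replicate block is added.

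Summed markers of other cell types also varied with region. Floor plate genes, of cells known to secrete Slits, summed to 421.2 to 885.4 CPM for cervical, against 827.5 to 1160 CPM for thoracic libraries, with log2 differences within pairs of -0.97, -0.26 and -0.55. All 7 were tested and had log2 fold changes below 0, and none was called by edgeR. With the block 5 were called lower in cervical libraries, where 1.39% of all genes tested were. Among them was Shh with 17.2 ± 8.24 CPM for cervical, against 34.2 ± 6.44 CPM for thoracic. The 3 V3 and p3 genes are of ventral commissural neurons and their progenitors. They summed to 9.64 to 16.1 CPM for cervical, against 31.95 to 54.3 CPM for thoracic libraries. Both tested genes of the 3 were called lower in cervical by edgeR, as 0.35% of all genes tested were. The 7 progenitor genes summed to 766 to 1019 CPM for cervical, against 932.3 to 1242 CPM for thoracic. Of these, 1 had a log2 fold change above 0 (Pax6, 0.28) and 6 below 0. Vim lay at -0.48 and Nes at -0.45, but Fabp7 at -0.00688. The 6 mesenchyme genes summed to 13.7 to 150.4 CPM for cervical, against 84.8 to 157.8 CPM for thoracic. Within pairs the mesenchyme sum differed by -2.63, -2.055 and -0.07 on the log2 scale, so it hardly differed in pair 3. The floor plate, V3 and p3, progenitor and mesenchyme sums were each lower in the cervical library of every pair, as each Slit gene was. The 13 other interneuron genes went the other way, at 1887 to 2064 CPM for cervical, against 1635 to 1671 CPM for thoracic libraries. That is the side of Robo1 and Robo2. Of the 13, edgeR called 3 higher and 2 lower in cervical, where 0.191% and 0.35% of all genes tested were. Genes of dI1 commissural neurons summed to 53.8 to 73.2 CPM for cervical, against 64.95 to 86.4 CPM for thoracic libraries, with log2 differences within pairs of -0.12, -0.68 and 0.03, beside -0.12, -0.60 and 0.10 for Robo3. Endothelial genes stood at 5.30 to 12.2 CPM for cervical, against 7.98 to 13.3 CPM for thoracic libraries, and motor neuron genes at 357.9 to 723.6 CPM for cervical, against 447.9 to 669.4 CPM for thoracic, with log2 differences within pairs of 0.11, -0.32 and -0.30. No member of these lists was at 0 in every library. The part of these cell types in the Slit and Robo differences was not tested.

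**Figure D5:**
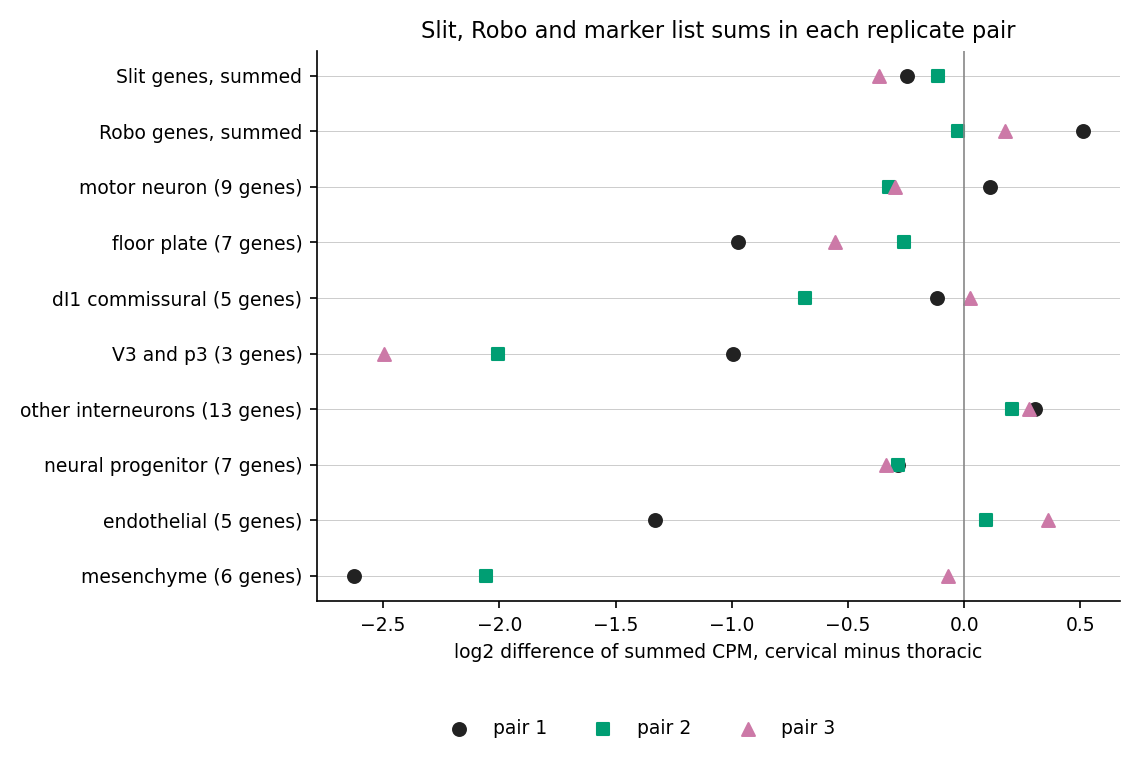
Log2 difference of summed CPM, cervical minus thoracic (x axis), in each of the 3 replicate pairs, for the Slit genes, the Robo genes and the marker lists (rows). The Slit, floor plate, V3 and p3, progenitor and mesenchyme sums lie below 0 in all 3 pairs, and the other interneuron sum lies above 0 in all 3.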

How the data were processed

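Total RNA depleted of ribosomal RNA was sequenced from 3 cervical and 3 thoracic samples, after 15 PCR cycles per the labels' protocols. The deposited values are raw read counts per gene, with exonic lengths in mm39. The submitters' processing notes name FastQC 0.11.9, STAR 2.7.5b and featureCounts 2.0.1. The strand setting is not given in the sources used here, but none of the 6 genes shares exonic bases with another row.

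Counts were tested with edgeR 4.0.16 in R 4.3.3 (default filter with a minimum count of 10, TMM, quasi-likelihood test, region as the only term), with p-values adjusted over the 21972 genes tested. The script was checked on simulated counts. The SE is the size of the log2 fold change over the root of F. Alternatives were DESeq2 1.42.0, limma-voom (limma 3.58.1), other scalings and filters, a replicate block and leaving out each library.

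Same-numbered libraries of the regions deviated together (correlations of 0.163, 0.160 and 0.195), so the numbers in the titles were taken as pairs. Between unlike numbers the correlations ran from -0.179 to 0.00834. Deviations were taken from the mean of each region, so these values depend on each other. Each library counted as a sample, since chi-square per degree of freedom between libraries of a region was at least 10.1. Members and lists were chosen with earlier results of these data known. Named pathway genes are those called with or without the block, up to 4 per list with the smallest adjusted p, and the most abundant per length.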

Additional observations from a re-analysis of the deposited data

How the results depend on the processing

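No Slit or Robo gene changed direction under any of the 13 alternatives. Without a low-count filter edgeR called 3 of the 6. These were Slit2 (log2 fold change -0.23, adjusted p = 0.0192), Slit3 (-0.49, 4.4e-09) and Robo2 (0.34, 4.8e-05). The cause of these far smaller p-values was not tested. That fit tested 39190 genes, of which it called 232 on the cervical side and 515 on the thoracic side. With the replicate block 1 was called, Slit3 (-0.48), and the block changed the call of no other member. Genes called higher in cervical libraries numbered 42, against 232 without a filter, 126 with DESeq2, 126 with the block and 1 to 48 when 1 library was left out. Genes called higher in thoracic libraries numbered 77, against 515, 282, 306 and 8 to 111. The lowest of these ranges, 1 and 8, came without cervical replicate 3. Of the pathway genes 1 was called, against 5 without a filter, 3 with DESeq2, 2 with limma-voom, 4 with the block and 0 to 3 when 1 library was left out. The cervical minus thoracic difference of the Robo1 share was 1.26 percentage points per length and -0.579 in raw counts, which follows from not dividing by length. That of the Slit1 share ran from -2.14 to 4.89 and that of the Slit2 share from -0.328 to 2.83 when 1 library was left out, so neither has a stable direction. Leaving out libraries and the transcript length were added for the shares after the data were seen. Depth limits the hairpin rows, where Mir218-1 had 6 to 56 counts a library, and not the 6 genes.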
